A study of Mus musculus with 16 samples.

Results

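Myc, its partner Max and the factors that compete for Max or resemble it were followed in mouse leukemia cells through a chase of labelled RNA. The network comprised 9 genes, chosen by name: Myc, Max, Mxi1, Mxd1, Mxd3, Mxd4, Mnt, Mga and Mlx, of 21177 genes in the deposited table. Their 3' ends were covered by 23 different intervals with a mean CPM (reads scaled to library size) of at least 1, of 23563 such intervals in all, and 17 of the 23 could be tested. Testing required a value above 0 in 12 or more of the 16 libraries, and every member had at least 1 tested interval. Each gene is described by its main interval, the one with the highest mean CPM.

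The samples were leukemia cells of C57BL/6 mice, labelled as bone marrow, from WT and YBX1-/- animals. YBX1 is a cold-shock-domain protein that binds mRNA, and the title of the series names mRNA stability and the RNA modification m6A as the question. In this assay (SLAM-seq), 4-thiouridine (4sU) taken up into new RNA is read afterwards as T-to-C changes. Both genotypes were labelled with 50 µM 4sU for 24 h and chased with 10 mM uridine, and RNA was taken at 0, 0.5, 1, 3, 6, 12, 18 and 24 h. There was 1 library per genotype and time point, so p-values reflect how time points scatter and not how animals vary. A rate is the T-to-C value of an interval on a percent scale. A falling rate can reflect loss of labelled transcripts or dilution by new unlabelled ones, and these cannot be told apart here.

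Myc is a basic helix-loop-helix leucine zipper factor that binds E-box DNA only as a dimer with Max, and it drives growth, ribosome production and cell division in many blood cancers. Mxd1, Mxi1, Mxd3, Mxd4 and Mnt also pair with Max and bring Sin3 corepressors to the same sites, while Mga joins Max to a Polycomb complex. Mlx is a Max-like partner of the glucose-sensing Mondo proteins and of some Mxd proteins. Max protein is known as long-lived and rather constant, whereas Myc mRNA and protein are known as short-lived.

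Of 16 markers of myeloid progenitor or leukemia cells, 15 reached a mean CPM of 1, led by the neutrophil elastase gene Elane at 478. Flt3 was under it at 0.302. Kit and Cd34 had 1.94 and 7.38 CPM, and Fcgr3 and Csf1r had 263 and 113. Erythroid markers reached a mean CPM of 1 in 2 of 8 cases and lymphoid markers in 2 of 9. Megakaryocyte markers reached it in 4 of 6 cases and stromal or endothelial markers in 1 of 7. Pf4 (39.8 CPM) was the highest megakaryocyte marker. Mean CPM covers all libraries, so no marker could be compared between genotypes. The main interval of Ybx1 had rates of 5.08% to 61.4% in WT and of 3.08% to 72.0% in YBX1-/- libraries. A rate is a share and not a level, so it does not check the knockout. The median rate over 15871 tested intervals was 42.7%, 48.7% and 43.3% at 0, 0.5 and 1 h in WT and 33.3%, 36.2% and 29.8% in YBX1-/- libraries. It fell to 0.855% and 0.758% at 24 h. Because of this gap, each library's median was subtracted before genotypes were tested. At 24 h, 33.8% of tested intervals were listed at 0 in WT and 15.4% in YBX1-/- cells.

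The mean CPM per kilobase of the main interval was 19.1 for Myc, 11.2 for Max, 13.4 for Mlx, 4.41 for Mnt and 2.75 for Mga. In the Mxd family it was 40.8 for Mxd3, 5.82 for Mxi1, 3.65 for Mxd4 and 2.18 for Mxd1. These are the authors' means over the libraries, carry no error and depend on the annotated length. The first 1418 of the 4074 bases of the Mxi1 interval held 94.0% of its CPM and had 15.7 CPM per kilobase, and the first 159 bases of the Myc interval had 45.3. The genes were therefore not ranked by level.

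At 1 h of chase Myc had lost more of its label than any other member in both genotypes. Its main interval (ENSMUSG00000022346) was the 466-base 3' UTR at chr15:61989909-61990374 on the plus strand of GRCm38, with a mean of 8.88 CPM. In WT cells its rate was 43.3%, 57.3% and 23.2% at 0, 0.5 and 1 h, 20% and 6.25% at 3 and 6 h, and 0%, 0.597% and 0% at 12, 18 and 24 h. Without YBX1 the rate was 48.0%, 35.5% and 19.0% at 0, 0.5 and 1 h, 4.65% and 1.45% at 3 and 6 h, and 2.16%, 1.57% and 0.98% at 12, 18 and 24 h. Both series thus dropped between 0.5 and 1 h, and YBX1-/- values were the lower ones from 0.5 to 6 h and the higher ones from 12 h on.

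At 1 h the Myc rate was 46.1% of its mean at 0 and 0.5 h in WT and 45.6% in YBX1-/- cells. The median over all tested intervals was 95.4% in WT (quartiles 79.6% and 110%) and 86.1% in YBX1-/- cells (73.2% and 100%), which placed Myc at percentiles 5.06 and 3.24. The next lowest member was Mnt, at 90.3% in WT and 53.0% in YBX1-/- cells. The 1 h value was 1 library in each genotype. At 3 h the genotypes parted: Myc stood at 48.5% of its 0 to 1 h mean in WT, close to the median of 47.3%, and at 13.6% in YBX1-/- cells, percentile 2.01 where the median was 58.0%. At 6 h the same share was 15.2% in WT and 4.24% in YBX1-/- cells, at percentiles 20.1 and 9.39.

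The other 3 Myc intervals were shorter versions with the same start. The 345-base version held 99.4% of the CPM and the 159-base version 81.1%. In the 159-base version the rate at 1 h was 24.2% in WT and 17.6% in YBX1-/- cells, and at 3 h 15.5% and 4.55%. These intervals share most of their reads with the main one and are no separate evidence.

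The Myc 3' UTR is shown at the sequence elements most often linked to mRNA turnover: ATTTA, the core of AU-rich elements; TGTANATA, the Pumilio-binding element; and GGACT, a frequent context of m6A. Only the transcript strand was searched, and overlaps between motifs were allowed. The sequences are from the GENCODE M21 transcripts on GRCm38, on the plus strand, and capitals mark the motif.
Myc ATTTA, chr15:61990137-61990161: acagatttgtATTTAattgtttttt
Myc ATTTA, chr15:61990274-61990298: aattttttttATTTAaagacatttt
Myc GGACT, chr15:61990030-61990054: tggggctttgGGACTgtaagcttca
Myc TGTANATA, chr15:61990185-61990212: aattttcccaTGTAAATAgggccttgaa
Myc TGTANATA, chr15:61990204-61990231: ggccttgaaaTGTAAATAactttaataa
The windows of the last pair overlap, but no motif letters do. Of 896 main intervals of similar length (within 20%), 45.5% held ATTTA and 18.1% held at least as many copies as Myc. TGTANATA was in 10.7% of them, with at least 2 copies in 2.57%, and GGACT in 42.2%. The match is a description of the letters and not evidence of binding.

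**Figure D1:**
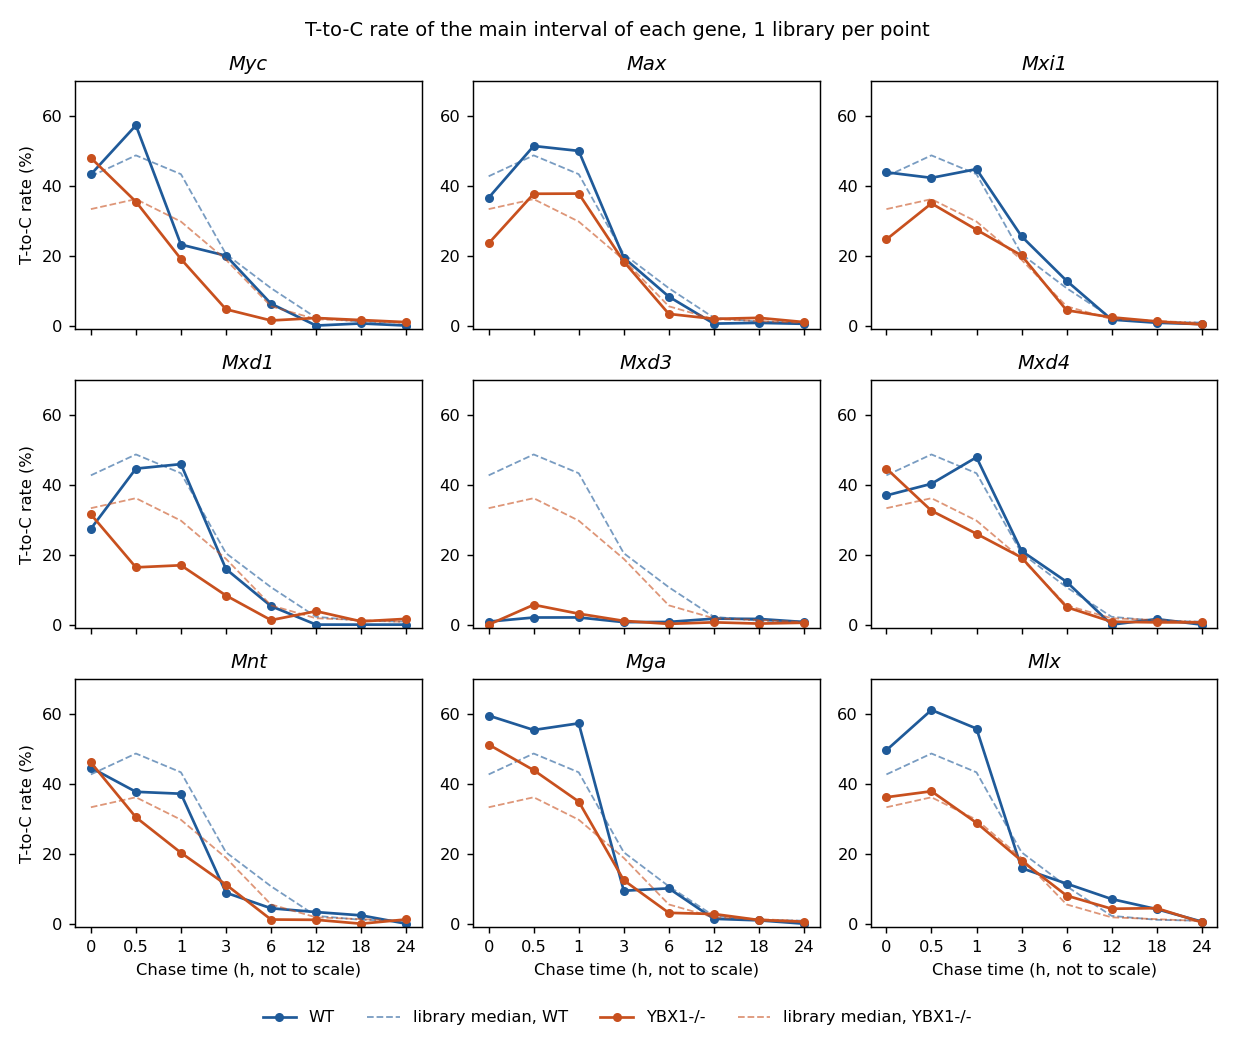
T-to-C rate (percent) of the main interval of each of the 9 genes against hours of chase, 1 point per library, for WT and YBX1-/- cells. Myc drops to 23.2% and 19.0% at 1 h, while Mxd3 never exceeds 5.67%.

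At 1 h of chase Max, the shared dimer partner, had kept more of its label than Myc, in 1 library per genotype. Its main interval (ENSMUSG00000059436) was 1299 bases of 3' UTR at chr12:76937269-76938567 on the minus strand. In WT cells the rate was 36.6%, 51.4% and 50.0% at 0, 0.5 and 1 h, 19.4% and 8.28% at 3 and 6 h, and 0.552%, 0.772% and 0.495% at 12, 18 and 24 h. The YBX1-/- rate was 23.5%, 37.7% and 37.8% at 0, 0.5 and 1 h, 18.3% and 3.33% at 3 and 6 h, and 1.90%, 2.21% and 0.998% at 12, 18 and 24 h. YBX1-/- values were lower through 6 h and higher at all 3 late times. At 1 h Max stood at 114% of its mean at 0 and 0.5 h in WT and at 123% in YBX1-/- cells, against 46.1% and 45.6% for Myc. At 3 h it stood at 42.2% of its 0 to 1 h mean in WT, below the 48.5% of Myc. In YBX1-/- cells the 3 h share was 55.5%, above the 13.6% of Myc. After each library's median was subtracted, the late rate was higher in YBX1-/- cells by 1.38 on the log2 scale (SD 0.46 over 3 time points). The late Max rates were at most 2.21%, and the depth behind them is unknown. This was not particular to Max. The same late difference was 4.34 for Mxd1, 3.14 for Myc, 1.71 for Mxd4, 1.35 for Mga and 0.30 for Mxi1. It was -0.30 for Mlx, -0.73 for Mnt and -1.18 for Mxd3.

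A second Max interval of 1294 bases had the same rates as the main one. The 377-base interval at the start of the 3' UTR, with 24.8% of the CPM of the main interval, could not be tested. It was listed at 0 in WT at 0.5 and 1 h, where the main interval had 51.4% and 50.0%, and at 37.5% and 33.8% in YBX1-/- cells. A 90-base interval of 1.13 CPM outside the main one was also untested, with a single WT value above 0 of 8.33%. Max carried a pair of TGTANATA matches, shown here from the minus strand because as many were found in 5.79% of 1434 intervals of similar length.
Max TGTANATA, chr12:76937611-76937638: ctattttgtaTGTAAATAccaagagcga
Max TGTANATA, chr12:76937338-76937365: aagagtatgtTGTACATActgcccaaga

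Mxi1 (ENSMUSG00000025025), a repressor of the Mxd family, was read from 4074 bases of 3' UTR at chr19:53371737-53375810 on the plus strand, at 23.7 CPM. Its WT rate was 43.9%, 42.3% and 44.8% at 0, 0.5 and 1 h, 25.5% and 12.8% at 3 and 6 h, and 1.69%, 0.797% and 0.418% at 12, 18 and 24 h. The YBX1-/- rate was 24.7%, 35.0% and 27.4%, then 20.1% and 4.38%, then 2.36%, 1.19% and 0.319% at the same times. Mxi1 kept more label at 3 h than any other member in both genotypes, 58.5% of its 0 to 1 h mean in WT and 69.1% in YBX1-/- cells.
Its 1557-base and 1418-base versions differed from the main interval by at most 1.47 and 4.96 percentage points in any library. The 724-base version, with 23.8% of the CPM, differed more, with 1.45% against 25.5% in WT at 3 h. The 211-base and 75-base versions (1.80 and 1.17 CPM) could not be tested and ranged from 0% to 100%. The Mxi1 3' UTR held 9 copies of ATTTA and no TGTANATA. Among 836 intervals of similar length the median was 7 copies of ATTTA, 34.6% held at least 9, and 52.8% held TGTANATA.

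Mxd1 (ENSMUSG00000001156), a repressor known to rise as myeloid cells mature, was read from 3829 bases at chr6:86647042-86650870 on the minus strand, at 8.35 CPM. In WT cells its rate was 27.4%, 44.7% and 45.9% at 0, 0.5 and 1 h, 15.9% and 5.29% at 3 and 6 h, and it was listed at 0 at 12, 18 and 24 h. Cells without YBX1 had 31.6%, 16.4% and 17.0% at 0, 0.5 and 1 h, 8.33% and 1.28% at 3 and 6 h, and 3.85%, 0.926% and 1.65% at 12, 18 and 24 h. YBX1-/- cells were thus below WT from 0.5 to 6 h, and the late values above 0 were all from YBX1-/- cells. An exact 0 may mean that no read or no converted read was seen. The mean rate at 0 to 1 h was at percentile 27.9 of all tested intervals in WT and at 8.56 in YBX1-/- cells. A second Mxd1 interval of 18 bases and 1.03 CPM could not be tested.

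Mxd4 (ENSMUSG00000037235), another Max-binding repressor, was read from 3105 bases at chr5:34173887-34176991 on the minus strand, at 11.3 CPM. Its WT rate was 37.0%, 40.3% and 47.9% at 0, 0.5 and 1 h, 21.1% and 12.3% at 3 and 6 h, and 0%, 1.59% and 0% at 12, 18 and 24 h. Its YBX1-/- rate was 44.7%, 32.6% and 26.0%, then 19.2% and 5.02%, then 0.826%, 0.641% and 0.637%. The WT rate was highest at 1 h and the YBX1-/- rate at 0 h, so Mxd4 stood at 124% of its mean at 0 and 0.5 h in WT and at 67.3% in YBX1-/- cells. Its interval held 5 copies of GGACT and no ATTTA or TGTANATA. Among 1133 intervals of similar length, 16.8% held at least 5 copies of GGACT, 96.9% held ATTTA and 47.0% held TGTANATA. Over 514 bases (16.6%) it overlapped the antisense gene Gm42846. A 413-base version of 1.85 CPM could not be tested and was listed at 0 in 5 libraries.

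Mxd3 (ENSMUSG00000021485), a repressor linked to proliferating cells, carried almost no label in either genotype. Its interval of 615 bases was at chr13:55325168-55325782 on the minus strand, with 25.1 CPM. The WT rates were 0.862%, 2.04% and 2.05% at 0, 0.5 and 1 h, 0.711% and 0.769% at 3 and 6 h, and 1.71%, 1.63% and 0.748% at 12, 18 and 24 h. The YBX1-/- rates were 0%, 5.67% and 3.12%, then 1.07% and 0.217%, then 0.656%, 0.298% and 0.541%. No fall over the chase was called (slopes of -0.01 and -0.05 log2 per h, limma adjusted p = 0.859 in WT and 0.551 in YBX1-/- cells).
Only 40 of 15871 tested intervals (0.252%) had a highest rate at or below that of Mxd3. Its last 105 bases (17.1%) overlapped the 3' end of Prelid1, a gene of mitochondrial lipid transport on the opposite strand. The main interval of Prelid1, at 16.3 CPM, had rates of 42.2%, 46.8% and 43.1% at 0, 0.5 and 1 h in WT and of 28.0%, 33.8% and 26.5% in YBX1-/- cells. No source used here says whether reads were counted by strand, so reads of the 2 genes cannot be told apart, and the part of this overlap in the low rate was not tested. The values of Mxd3 are therefore uncertain as rates of Mxd3 mRNA.

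Mnt (ENSMUSG00000000282), a broadly expressed antagonist of Myc, was read from 2405 bases at chr11:74843321-74845725 on the plus strand, at 10.6 CPM. In WT cells the rate was 44.7%, 37.8% and 37.2% at 0, 0.5 and 1 h, 8.87% and 4.41% at 3 and 6 h, and 3.33%, 2.38% and 0% at 12, 18 and 24 h. The YBX1-/- values were 46.2%, 30.5% and 20.3%, then 11.2% and 1.19%, then 1.11%, 0% and 1.22%. Mnt kept little label at 3 and 6 h in both genotypes. It stood at 22.2% and 11.1% of its 0 to 1 h mean in WT (percentiles 16.5 and 9.69) and at 34.6% and 3.68% in YBX1-/- cells (percentiles 19.6 and 7.76).

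Mga (ENSMUSG00000033943), a very large protein with a T-box and a helix-loop-helix domain, was read from 4616 bases at chr2:119964966-119969581 on the plus strand, at 12.7 CPM. It had the highest mean label of the network over 0 to 1 h in both genotypes: 59.6%, 55.5% and 57.4% at 0, 0.5 and 1 h in WT and 51.3%, 44.0% and 35.0% in YBX1-/- cells, although Mlx was higher in WT at 0.5 h and Max in YBX1-/- cells at 1 h. Its rate then fell to 9.43% and 10.1% at 3 and 6 h in WT and to 12.4% and 3.11% in YBX1-/- cells. Late values at 12, 18 and 24 h were 1.40%, 0.957% and 0% in WT against 2.78%, 1.05% and 0.568% in YBX1-/- cells. At 3 h Mga kept 16.4% of its 0 to 1 h mean in WT, the least of the 9 genes, and 28.6% in YBX1-/- cells, at percentiles 10.9 and 12.8. The 2784-base version, with 84.6% of the CPM, stayed within 3.66 percentage points of the main interval in every library. TGTANATA was also found in 2 copies in Mxd1, a count reached by 20.8% of 925 intervals of similar length. Mnt held 1 copy, reached by 40.1% of 1374. Mga held 3 TGTANATA matches, a count reached by 10.2% of 666 intervals of similar length. The Mga matches are shown from the plus strand beside the pairs in Myc and Max.
Mga TGTANATA, chr2:119966286-119966313: ctatctagttTGTAAATAatcatggtgc
Mga TGTANATA, chr2:119967552-119967579: tttatacaccTGTAAATAcatggaatgt
Mga TGTANATA, chr2:119968068-119968095: taaatttgtgTGTATATAttggctgtgt

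Mlx (ENSMUSG00000017801) was read from 1042 bases at chr11:101091166-101092207 on the plus strand, at 13.9 CPM. In WT cells the rate was 49.7%, 61.2% and 55.9% at 0, 0.5 and 1 h, 15.9% and 11.5% at 3 and 6 h, and 7.06%, 4.17% and 0.606% at 12, 18 and 24 h. In YBX1-/- cells it was 36.2%, 37.9% and 28.9%, then 18.0% and 8.05%, then 4.27%, 4.44% and 0.393%. Mlx had the highest rate of the 9 genes at 12 and 18 h in both genotypes. Of this interval, 385 bases (36.9%) overlapped Psmc3ip on the opposite strand, and the part of that overlap was not tested.

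**Figure D2:**
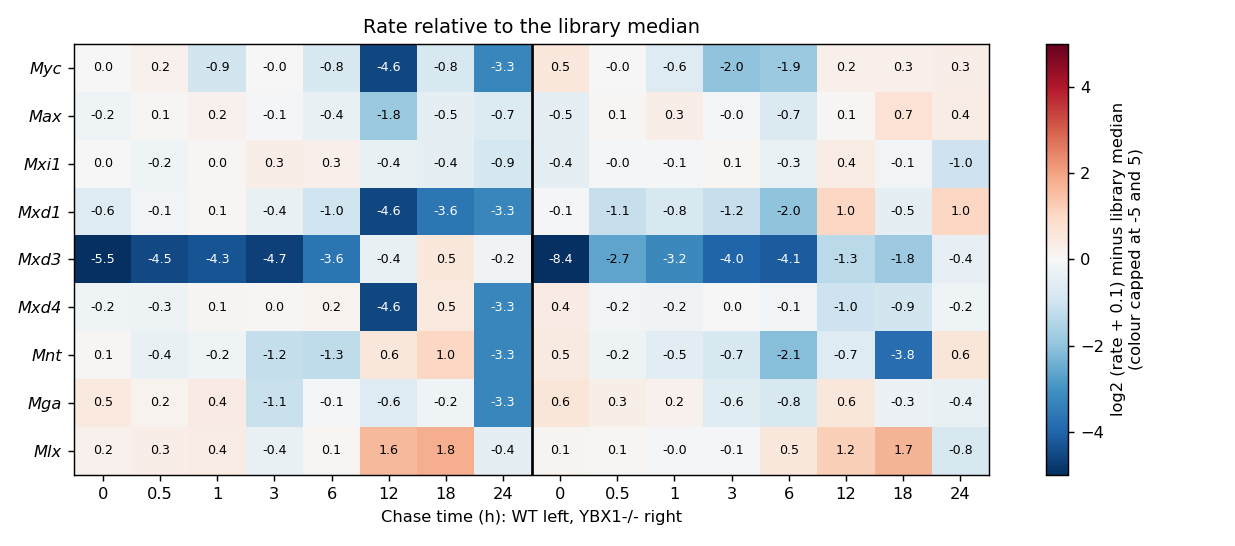
Rate of each gene relative to its library, as log2(rate in percent + 0.1) minus the median over all tested intervals of that library, for 9 genes in 16 libraries. Negative values mark less label than the typical interval. Mxd3 is far below it from 0 to 6 h and Myc is below it at 1 h in both genotypes.

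Over 0 to 1 h, the mean WT rates of the 9 genes ran in the order Mga 57.5% (SD 2.07 over 3 time points), Mlx 55.6% (5.76), Max 46.0% (8.19), Mxi1 43.6% (1.26), Mxd4 41.7% (5.60), Myc 41.3% (17.2), Mnt 39.9% (4.16), Mxd1 39.3% (10.3) and Mxd3 1.65% (0.683). Neighbours in this order differed by less than the larger of their SDs, except Mlx from Max and Mxd1 from Mxd3. In YBX1-/- cells the order was Mga 43.4% (8.18), Mxd4 34.4% (9.47), Mlx 34.3% (4.81), Myc 34.2% (14.5), Max 33.0% (8.21), Mnt 32.3% (13.0), Mxi1 29.0% (5.33), Mxd1 21.7% (8.60) and Mxd3 2.93% (2.84). Here Mxd1 and Mxd3 were the neighbours that differed by more than an SD. Mga led both orders, at percentiles 91.7 and 87.5 of all tested intervals, and Mxd3 closed both.

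**Figure D3:**
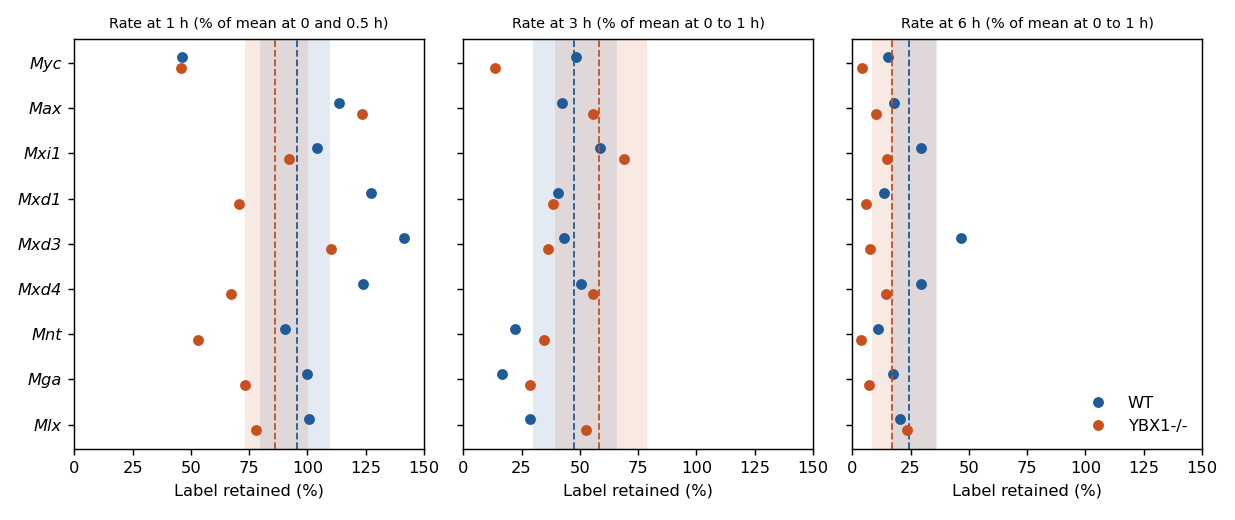
Label retained by each gene in WT and YBX1-/- cells at 1 h (percent of the mean of 0 and 0.5 h) and at 3 and 6 h (percent of the 0 to 1 h mean). Myc has the lowest value at 1 h in both genotypes (46.1% and 45.6%), and at 3 h it has 48.5% in WT and 13.6% in YBX1-/- cells.

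Over the whole chase, the label of 8 of the 9 genes fell in each genotype, all but Mxd3 (limma, adjusted p under 0.05). This share reads against a background of 92.7% of tested intervals that fell in WT and 91.3% in YBX1-/- cells, so it does not set the network apart. The steepest WT slopes were those of Mxd1, -0.43 log2 per h (SE 0.073), Myc, -0.38 (SE 0.072), and Mxd4, -0.37 (SE 0.075), where the median of all tested intervals was -0.27. In YBX1-/- cells Myc had a slope of -0.20 (SE 0.056) and Mxd1 of -0.17 (SE 0.053), shallower than the median of -0.25. On a straight line the slope of Myc corresponds to a half-life of the label of 2.61 h in WT and 5.05 h in YBX1-/- cells. An exponential that falls to a constant floor gave 2.08 h in WT (0.356 to 2.34 h when each time point was left out) and 0.798 h in YBX1-/- cells (0.551 to 0.926 h). The line was fitted to log2 values and this curve to rates in percent, so they differ in scale as well as in the floor. The fitted floor of Myc was 3.6e-17% in WT and 1.36% in YBX1-/- cells. The order of the genotypes turned between line and curve, and whether scale or floor turned it was not tested. For Mxd1 the order turned as well. The line gave 2.34 h in WT and 5.99 h in YBX1-/- cells. The curve gave 2.86 h (1.77 to 3.34 h when each time point was left out) and 0.957 h (0.517 to 1.81 h). Its floor for Mxd1 was 1.3e-19% in WT and 2.33% in YBX1-/- cells. The left-out ranges of the genotypes overlapped for both genes. For Mxi1 the curve gave 3.37 h in WT and 3.39 h in YBX1-/- cells. The same curve, fitted to the library medians over all tested intervals, gave 2.85 h and 2.79 h. In WT its root mean square error was 7.34 percentage points for Myc and 7.75 for Mxd1, against 3.59 for the library medians. In YBX1-/- cells these errors were 1.49, 2.38 and 2.16.

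The difference in the rate of loss between genotypes was not called for any of the 9 genes (0 of 9; limma, adjusted p), where 0.0189% of tested intervals were called. At an unadjusted p under 0.05 it passed for 1 of the 9, Mxd1, beside 12.6% of tested intervals. For Mxd1 the slope was shallower in YBX1-/- cells by 0.24 log2 per h (SE 0.074, 95% interval 0.07 to 0.41, adjusted p = 0.224). For Myc the difference was 0.17 (SE 0.075, interval -0.006 to 0.34, adjusted p = 0.419). Max had 0.07 (SE 0.031, adjusted p = 0.426), Mga 0.08 (SE 0.040, adjusted p = 0.428) and Mxd4 0.08 (SE 0.067, adjusted p = 0.679). Without 24 h the values were 0.016 for Mga and 0.0071 for Mxd4. With 0.01 or 0.5 added to the rates in place of 0.1, the differences in slope were 0.41 or 0.13 for Mxd1 and 0.28 or 0.091 for Myc. Mxi1, Mnt, Mxd3 and Mlx lay between -0.06 and 0.02, with adjusted p from 0.794 to 0.977. The narrowest interval was that of Mlx, -0.05 to 0.03 log2 per h, and the widest that of Mnt, -0.21 to 0.24. Of the 9 differences, 7 were above 0 and their median was 0.07, where 53.3% of 7361 main intervals were above 0 with a median of 0.005.

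The sign of these differences changed without the late libraries. With the 0 to 6 h libraries alone, the sign was opposite for all 9 genes: Myc had -0.29 log2 per h (adjusted p = 0.453) and Mxd1 -0.14 (adjusted p = 0.721), and none was called. At 12 h 3 members were listed at 0 in WT and 0 in YBX1-/- cells, and at 24 h 5 in WT and 0 in YBX1-/- cells. At 18 h 1 member was at 0 in each genotype.

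**Figure D4:**
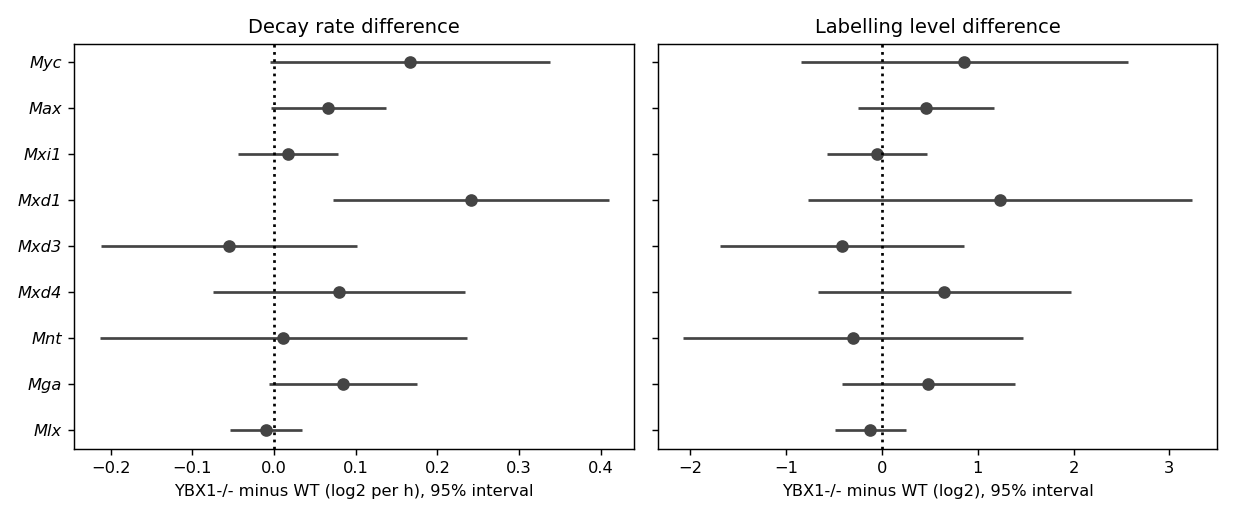
Left, difference in the slope of label loss (YBX1-/- minus WT, log2 per h), and right, difference in label over all times (log2), for the 9 genes with 95% intervals from limma. The slope interval of Mxd1 (0.07 to 0.41) lies above 0, and its adjusted p is 0.224.

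The amount of label over all time points, relative to the library median, was not called different for any of the 9 genes either. No tested interval was called (0%), the smallest adjusted p was 0.181, and 5.32% passed at an unadjusted p under 0.05, among them 0 members. The difference was 1.23 on the log2 scale for Mxd1 (SE 0.89) and 0.86 for Myc (SE 0.76), with YBX1-/- higher than WT at 5 of 8 time points for Myc and at 4 of 8 for Mxd1. Without 12 h these differences were 0.61 for Mxd1 and 0.30 for Myc, and with 0.01 or 0.5 added to the rates in place of 0.1 they were 2.44 or 0.50 for Mxd1 and 1.67 or 0.35 for Myc. Mlx had -0.12 (SE 0.16, 95% interval -0.49 to 0.25). Two-sided exact permutations of genotype within time points gave p = 0.203 for Max, 0.359 for Myc and up to 0.758 for Mxi1, where the smallest p possible is 0.00781.

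By time point, the uncorrected rate was lower in YBX1-/- cells for 8 of 9 members at 0.5 and at 1 h and for 9 of 9 at 6 h, and for 3 of 9 at 12, 18 and 24 h. The library medians were lower as well, with differences of -12.5 and -13.6 percentage points at 0.5 and 1 h and of -5.19 at 6 h. After subtraction of the medians, 4, 6 and 8 of 9 members were lower at 0.5, 1 and 6 h. At 0, 3, 12, 18 and 24 h it was 4, 4, 3, 5 and 3 of 9. The share of all tested intervals that was lower was not counted, so these counts do not set the network apart. For Myc the mean difference at 3 and 6 h, relative to the library medians, was -1.53 on the log2 scale (SD 0.62 over 2 time points), lower at both times. For Mlx it was -0.26 over 0 to 1 h (SD 0.16 over 3 time points), lower at all 3 times, and 0.37 at 3 and 6 h (SD 0.10 over 2 time points), higher at both.

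Genes that act with the network gave no called genotype difference. The list of cofactors, which holds the Trrap and Tip60 acetylation machinery and the Sin3 repressors, had 22 of 24 genes tested, and the label of 21 fell in each genotype. Its median difference in slope was -0.005 log2 per h. The smallest p there was that of Hdac3, a deacetylase of the NCoR complex, with -0.10 (SE 0.040, adjusted p = 0.37). Of 19 genes for turnover and phosphorylation of Myc protein, 11 were tested, 10 fell in WT and 11 in YBX1-/- cells, and the median difference was -0.03. Of 22 proteins that bind Myc mRNA or AU-rich mRNA, 20 were tested and all 20 fell in both genotypes, with a median of 0.003. Among them Tial1, a binder of U-rich mRNA, had -0.12 (SE 0.039, adjusted p = 0.244) and Ybx1 itself -0.04 (SE 0.021, adjusted p = 0.449).

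Of 45 genes known as targets of Myc, 41 were tested and 40 fell in each genotype, with a median difference in slope of 0.001. The smallest p was that of Nip7, a ribosome assembly factor, with -0.20 (SE 0.051, adjusted p = 0.181). Of the Myc paralogs and Mondo partners, Mlxip (MondoA) was tested and fell in both genotypes. Mycn (0.852 CPM), Mycl (0.0776 CPM) and Mlxipl (0.0865 CPM) were under the minimum level. Label fell in 95.1% of all main intervals in WT and in 91.7% in YBX1-/- cells.

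The tested genes whose pattern over the 16 libraries was most like that of Myc, among 7142 compared on median-subtracted log2 values, were Hdac4 (Pearson r = 0.904), Mettl14 (0.897), Rictor (0.893), Slc30a6 (0.890) and Mrpl46 (0.890). Mettl14 is a subunit of the m6A writer. Each of these 5 was listed at 0 in WT at 12 and at 24 h, as Myc was, and these zeros weigh in the correlation. Within the network r with Myc was 0.819 for Mxd1, 0.768 for Max, 0.767 for Mxd4, 0.614 for Mga, 0.268 for Mxi1, 0.131 for Mnt, -0.164 for Mlx and -0.399 for Mxd3. The points share libraries, so these values describe the pattern and carry no test.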

How the data were processed

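The authors deposited 1 table of the 16 libraries. For each of 86993 intervals and each library it gave a T-to-C rate, deposited as a fraction from 0 to 1. No source used here says whether its denominator was reads or covered Ts. Per the file headers, the deposited table also held mean CPM, the mean coverage (signal) over T positions and how many Ts each interval held. The submitters' processing notes name CASAVA, HISAT2 2.1.0 and the build GRCh38. The mouse build GRCm38 was used here, because the deposited T content equalled the T count of the GENCODE sequence in 100% of 23520 intervals. The depth of each library is unknown, so no counting error could be given.

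Gene identifiers were matched to symbols (21148 of 21177). Repeated intervals were merged, leaving 74385. Rates in percent were tested as log2(rate + 0.1) with limma 3.58.1 (trend, R 4.3.3) over all 15871 tested intervals, with Benjamini-Hochberg adjustment and a threshold of 0.05, and fold changes are on that scale, which understates changes of low rates. Loss of label was a slope over hours in each genotype. Genotypes were compared after subtraction of library medians with time point as a factor, by the interaction with hours (difference in slope) and by genotype (difference in level). Exponential curves were fitted with scipy 1.17.1. The scripts were tested on simulated data. Named were the 9 members, Ybx1, up to 4 genes per list with the smallest p of the difference in slope, and the 5 genes most correlated with Myc. Members and lists were chosen with earlier results of these data known. Alternatives covered the added value, filters, chase windows, left-out time points, the YBX1-/- 0 h library, centring and robust moderation.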

Additional observations from a re-analysis of the deposited data

How the results depend on the processing

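No genotype difference of a member was called under any alternative run. The count of intervals called for a difference in slope was 3 and moved with nearly every setting: 1 with an added value of 0.01, 0 with 0.5, 10 with rates above 0 in all libraries, 10 with no filter on zeros, 15 at a mean CPM of at least 5, 9 with 1 interval per gene, 0 over 0 to 6 h, 592 over 0 to 12 h, 0 without the YBX1-/- 0 h library, 0 without centring, and 0 to 407 when each time point was left out. The count for a level difference was 0, and 2 with rates above 0 in all libraries or a mean CPM of at least 5. The counts of falling intervals were 14706 in WT and 14495 in YBX1-/- cells; they were 5379 and 5379 with rates above 0 in all libraries, where fewer intervals were tested, and 7038 and 6794 with 1 interval per gene. Over 0 to 6 h the differences in slope reversed to -0.29 (Myc), -0.035 (Max), -0.064 (Mxi1), -0.14 (Mxd1), 0.020 (Mxd3), -0.10 (Mxd4), -0.15 (Mnt), -0.11 (Mga) and 0.13 (Mlx), and the level differences to -0.51 (Myc), -0.093 (Max), -0.63 (Mxd1), 0.043 (Mxd3) and -0.030 (Mga). With no filter on zeros the slope differences were -0.018 (Max), -0.067 (Mxi1), -0.0046 (Mxd4) and -0.073 (Mnt). That of Mnt was -0.13 over 0 to 12 h, -0.0059 with an added value of 0.5 and -0.25 to 0.13 when each time point was left out, and without 24 h its adjusted p was 0.08. Without centring Mlx had 0.0098; the median of all tested intervals was then 0.02 for the slope and -0.32 for the level, against 0.0043 and 0.011 with centring. When each time point was left out, the level difference was -0.16 to 0.028 for Mxi1 and -0.90 to 0.35 for Mnt, 0.14 to 0.66 for Mga, 0.24 to 0.94 for Mxd4 and 0.25 to 0.57 for Max, and the WT slope of Mxd3 was -0.024 to 0.018. Without the YBX1-/- 0 h library Mxi1 had a level difference of 0.012, and over 0 to 12 h the WT slope of Mxd3 was 0.0040. Myc, Mxd1, Mxd3, Mxd4, Mnt and Mga had a 0 in some library and so gave no value with rates above 0 in all. The cause of these changes was not tested, and unknown depth limits every rate near 0.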

Other observations

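Across the table, low label in the first hour went with overlap by exons of the opposite strand, a count made after the rates of Mxd3 were seen. Of 6351 main intervals with no such overlap, 1 had a mean WT rate under 5% at 0 to 1 h. Among 657 with an overlap of up to 50% of their length, 28 (4.26%) were under 5%, and among 353 with more than 50%, 21 (5.95%) were. In YBX1-/- cells the counts were 3, 39 and 25. The class of up to 50% held Mxd3, Mlx, Mxd4 and Mxi1, with overlaps of 17.1%, 36.9%, 16.6% and 0.736%. Their mean WT rates at 0 to 1 h were 1.65%, 55.6%, 41.7% and 43.6%. The part of the overlap in these rates was not tested. Psmc3ip, the recombination cofactor gene opposite Mlx, had rates of 10.3%, 4.42% and 8.62% at 0, 0.5 and 1 h in WT and of 19.4%, 18.1% and 16.9% in YBX1-/- cells, higher in the latter at all 3 times although the library medians were lower. Mlx itself had 49.7%, 61.2% and 55.9% in WT and 36.2%, 37.9% and 28.9% in YBX1-/- cells.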
